A study of Oryza sativa Japonica Group with 28 samples.

Results

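The plasma membrane H+-ATPases of rice are encoded by a small gene family, and 8 of its genes, named OSA1 to OSA8, are described here in tissues of the developing grain. They were taken by gene identifier, with earlier results of these data known, out of 45990 genes in the deposited expression table. They are OSA1 (Os03g0689300), OSA2 (Os07g0191200), OSA3 (Os12g0638700), OSA4 (Os05g0319800), OSA5 (Os08g0241800), OSA6 (Os02g0797300), OSA7 (Os04g0656100) and OSA8 (Os03g0100800). The table annotates 7 of the 8 with the same 4 Gene Ontology identifiers for ATP hydrolysis, ATP biosynthesis and transmembrane ion movement, and gives OSA5 none. Only 3 further genes carried all 4.

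These pumps split ATP in the cytosol and move protons out of the cell. The proton gradient and the membrane voltage they build drive carriers that take up sugars, amino acids and mineral ions, among them the sucrose/H+ symporters. Their C-terminal region holds the pump back until phosphorylation of its end and binding of a 14-3-3 protein release it. In wheat grains, pumps of this kind are known from the transfer cells between the maternal tissue and the endosperm. OSA1 is known in rice for its part in stomatal opening and root nutrient uptake.

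RNA was sequenced from tissues cut by laser from grains of cultivar Nipponbare grown in hydroponic solution, with no treatment or mutation named in the labels. The tissues were the ovular vascular trace (OVT), the maternal strand through which assimilates arrive, the nucellar epidermis (NE), the layer between it and the endosperm, the cross cells (CC), a green layer of the pericarp, the starchy endosperm (EN), and the aleurone (AL), the outer endosperm layer. Stages are given in days after flowering (DAF): OVT, NE, CC and EN were sampled at 4 DAF, 8 DAF and 16 DAF and AL only at 16 DAF, with 3 grains to a preparation. The 28 libraries fell into 13 groups: 5 groups had 3 libraries (NE at each stage, OVT of 4 DAF, AL of 16 DAF), 5 had 2 libraries, and 3 (EN of 4 DAF, CC of 8 DAF, OVT of 16 DAF) had 1.

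Values are reads per gene multiplied by 1 factor per library, not divided by gene length. Estimated reads ran from 815253 to 97251829 per library, with a median of 6868633, so 3 reads, the upper limit by counting error behind a value of 0, corresponded to values from 0.132 to 33.4. Libraries carry the MM numbers of their labels. The marker lists for the tissues mostly peaked in their own tissue: all 6 endosperm markers were highest in EN of 16 DAF, both OVT markers and the NE marker in their tissue at 4 DAF, and 1 of the 2 oleosins in AL, while the other was highest in the OVT library of 16 DAF. Photosynthesis genes held 0.122 to 0.727% of the summed signal in CC and at most 0.103% in any other library. The 6 endosperm markers held 3.07 to 13.4% in EN, but also 4.85% and 4.33% in AL MM17 and MM18, 4.85% in NE MM17 of 16 DAF, 5.14% in CC MM17 of 16 DAF and 3.74% in OVT of 16 DAF; none of the 6 was at 0 in an EN library.

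Some libraries stood apart. AL MM17 and NE MM17 of 16 DAF were nearly alike (r = 0.99 over the genes tested). The only OVT library of 16 DAF, MM17, is kept in its label but marked as excluded in the study's table of read numbers. It was listed at 0 for 1232 of the 4995 genes that were above 0 in all other libraries. The same count was 439 of 4202 in EN MM17 and 292 of 4055 in EN MM18 of 16 DAF, and a 0 in these libraries is therefore reported only as listed at 0. CC MM05 bears 4 DAF in its title, which was followed, and 8 DAF in its day label. Its column name in the deposited data and the group sizes in the methods also give 4 DAF. The 8 DAF reading is used below only as an alternative setting. A lower value in a laser-cut tissue can mean fewer cells that express the gene or less RNA per cell, and the 2 cannot be told apart here.

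Across the family, OSA7, OSA1 and OSA2 carried nearly all of the signal. Their mean levels over the 13 groups were 2576, 1029 and 859.8 per kb of gene length, against 45.02 for OSA3 and 44.72 for OSA8. OSA7 was the highest member per kb in 14 libraries, OSA1 in 12 and OSA2 in 2. Without division by length the order changed, with OSA1 highest in 13 libraries, OSA7 in 12 and OSA2 in 3. The summed family level per kb was highest in OVT of 8 DAF (13860, mean of 2 libraries) and OVT of 4 DAF (12840 ± 4534, SD, n = 3), then in the EN library of 4 DAF (9557). It was lowest in EN of 8 DAF (436.4 ± 54.94, n = 2), next to EN of 16 DAF (543.1).

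**Figure D1:**
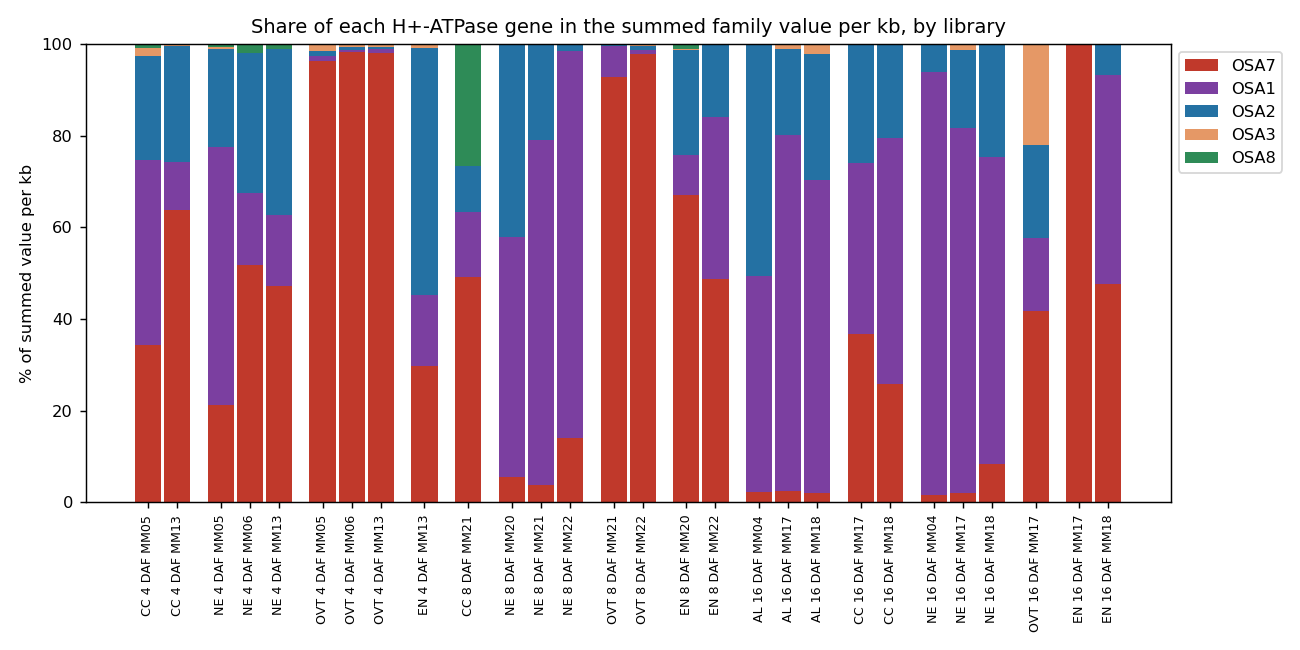
Share of each H+-ATPase gene in the summed family value per kb (vertical axis, % of the sum), with 1 bar per library. OSA7 fills 92.9 to 98.3% of the bar in the 5 OVT libraries of 4 and 8 DAF and 41.8% in OVT of 16 DAF, OSA2 fills 53.9% in EN of 4 DAF, and OSA8 fills 26.7% in CC of 8 DAF.

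The make-up of the family differed from tissue to tissue. Shares are of the 8 listed genes only, and the 3 further genes with the same annotation are left out of the sum. In OVT, OSA7 made up 97.53 ± 1.16% of the family level per kb at 4 DAF (SD, n = 3) and 92.9% and 97.9% in the libraries of 8 DAF. In the single OVT library of 16 DAF, OSA7 made up 41.8%, OSA2 20.3% and OSA1 15.9%, and OSA3 made up the rest, its largest share in any group. In NE, OSA1 made up 70.7 ± 16.59% at 8 DAF and 79.6 ± 12.65% at 16 DAF (n = 3 each), while at 4 DAF OSA7 was the largest on average with 40.03%. AL was shared between OSA1 with 64.4 ± 15.72% and OSA2 with 32.27% (n = 3), and in AL MM04 OSA2 was the larger with 50.5%. EN changed member with stage: OSA2 made up 53.9% in the library of 4 DAF, and OSA7 averaged 57.9% at 8 DAF and 73.85% at 16 DAF, the last from 47.7% and 100.0%. In the CC library of 8 DAF, OSA7 made up 49.2% and OSA8 26.7%, whereas OSA8 averaged at most 1.25% in every other group.

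OSA7 was the main pump gene of the ovular vascular trace at 4 and 8 DAF. It read 22400, 19820 and 37440 in OVT of 4 DAF, 43870 and 11260 in OVT of 8 DAF, and 1201 in OVT of 16 DAF. The 5 OVT libraries of 4 and 8 DAF lay above all 23 others. In NE it read 1035, 3343 and 1376 at 4 DAF, 294.7, 261.8 and 713.9 at 8 DAF, while at 16 DAF it read 62.64, 102.2 and 1088. In CC it read 1163 and 1752 at 4 DAF, 2016 at 8 DAF, and 761.1 and 3078 at 16 DAF. The NE values spread widely at 16 DAF, where MM18 lay far above MM04 and MM17. In EN it read 6031 at 4 DAF, 564.1 and 490.7 at 8 DAF, while at 16 DAF it read 410.7 and 901.1. AL libraries held 536.3, 110.7 and 112.9. The EN library of 4 DAF stood above all CC, NE and AL libraries, and AL had the lowest group mean (253.3 ± 245, SD, n = 3).

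**Figure D2:**
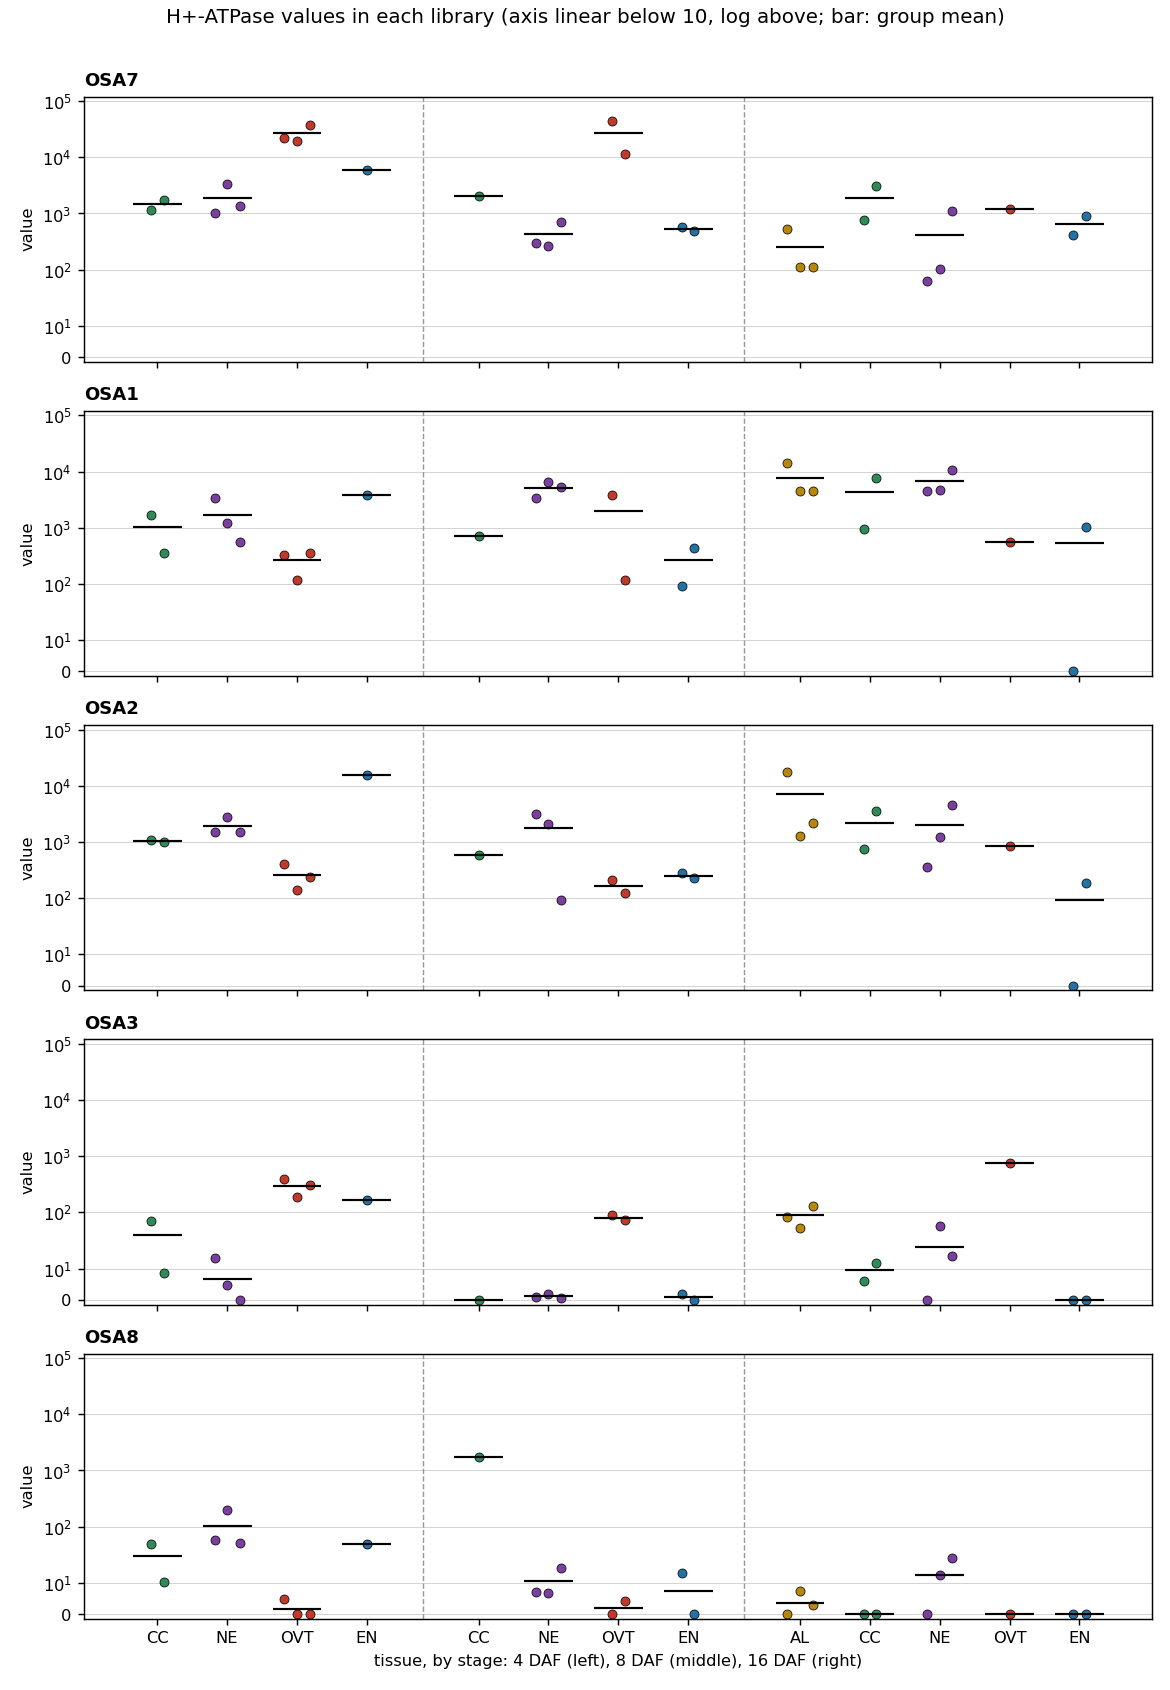
Value of the 5 measurable H+-ATPase genes in each library (vertical axis, scaled reads, linear below 10 and logarithmic above; points are libraries and bars are group means), by tissue and stage along the horizontal axis. OSA7 lies between 11260 and 43870 in the 5 OVT libraries of 4 and 8 DAF, and OSA8 reaches 1740 in the CC library of 8 DAF, with 195.1 as the next highest value.

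Against the other 3 tissues of the same stage, averaged, OSA7 was higher in OVT at 4 DAF (log2 fold change 3.38 ± 0.738, SE, adjusted p = 0.00321, limma on log2 of the value plus 10, Benjamini-Hochberg over 27553 genes) and at 8 DAF (4.89 ± 0.844, adjusted p = 0.000445). Of all genes tested, 11.7% passed the threshold of 0.05 in the OVT comparison at 4 DAF and 9.82% at 8 DAF. Both calls held under each of 39 alternative settings, with ranges from 3.11 to 4.03 and from 3.91 to 5.87. Against its own other stages, OVT of 16 DAF was lower in OSA7 (-4.3 ± 1.11, adjusted p = 0.00648), in a comparison where 20.5% of all genes passed and the median gene lay at -0.58. This rests on the 1 doubted library, and with upper-quartile scaling the value was -1.57 (adjusted p = 0.394). Relative to the other tissues of 16 DAF, OSA7 in OVT did not pass the test (1.05). With upper-quartile scaling it was higher there and passed (3.57). The same scaling made OSA7 lower in AL than in OVT (-5.33), a difference that otherwise did not pass (-2.59).

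In NE, OSA7 was lower than in the other 3 tissues at 8 DAF (-2.88 ± 0.75, adjusted p = 0.0343, with 3.06% of all genes passing), with NE values that overlapped those of EN but not those of CC or OVT. Leaving out any of the 3 NE libraries ended this call (adjusted p = 0.104 without MM20, 0.153 without MM21, 0.069 without MM22), as did leaving out OVT MM21 (0.0703), EN MM20 (0.0749) or EN MM22 (0.0659) or taking CC MM05 as 8 DAF (0.0554). Across NE stages, OSA7 was higher at 4 DAF than later (2.57 ± 0.712, adjusted p = 0.0389, with 4.3% passing), and 13 of 38 alternatives lost this call. It was lost without NE MM06 of 4 DAF (2.08, adjusted p = 0.261), and without NE MM13 of 4 DAF, NE MM20, NE MM21, EN MM20 or EN MM22 of 8 DAF, or NE MM04 or MM17 of 16 DAF the adjusted p was 0.0512 to 0.101. At 16 DAF the NE difference missed the threshold (limma, -2.34, adjusted p = 0.0546). It passed under some alternatives, among them a pseudocount of 1 (-2.43, adjusted p = 0.0361) and upper-quartile scaling (-3.57, adjusted p = 0.00335). AL against CC was likewise a near miss for OSA7 (limma, -2.94 ± 0.919, adjusted p = 0.0751), although the 3 AL values all lay below both CC values. It passed without NE MM18 of 16 DAF (adjusted p = 0.0258) or AL MM04 (-3.66, adjusted p = 0.0418).

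OSA1 was the main pump gene of the nucellar epidermis at 8 and 16 DAF and of the aleurone. In NE it read 3357, 1232 and 553 at 4 DAF, 3394, 6395 and 5267 at 8 DAF, while at 16 DAF it read 4587, 4776 and 10650. AL held 14240, 4455 and 4532, which overlapped NE of 16 DAF throughout. All AL libraries and all NE libraries of 16 DAF lay above every EN library, while among the NE libraries of 8 DAF MM20 lay below the EN library of 4 DAF. In CC it read 1679 and 352.2 at 4 DAF, 703.6 at 8 DAF, and 941.4 and 7815 at 16 DAF. In OVT it read 322.2, 118.9 and 353.4 at 4 DAF, 3810 and 117.2 at 8 DAF, and 556 at 16 DAF. The libraries of CC at 16 DAF and of OVT at 8 DAF thus differed many-fold from each other. In EN it read 3803 at 4 DAF, 91.26 and 433 at 8 DAF, and 1051 in MM18 of 16 DAF, while MM17 of 16 DAF was listed at 0.

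Only at 16 DAF in EN did OSA1 pass the test against the other tissues, and there it was lower (-4.36 ± 1.3, adjusted p = 0.0225, with 16.1% of all genes passing). AL was higher than EN of 16 DAF in OSA1 (6 ± 1.42, adjusted p = 0.0085, with 10.5% passing). Both rested on EN MM17: without it the values were -1 (adjusted p = 0.804) and 2.64 (adjusted p = 0.302), and without CC MM18 of 16 DAF the EN difference had an adjusted p of 0.0518. Fitted fold changes against libraries listed at 0 depend on the 10 added before taking logs. The higher means of NE at 8 DAF (3.36, adjusted p = 0.113) and 16 DAF (3.51 ± 1.16, adjusted p = 0.062) did not pass. Some alternatives that left 1 library in a group took them past the threshold, with values up to 4.18 at 8 DAF and 4.63 at 16 DAF. No stage comparison of OSA1 passed, that of EN at 4 DAF included (4.69, adjusted p = 0.159).

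OSA2 was highest in early endosperm and in 1 aleurone library. EN read 15640 at 4 DAF, 275.5 and 230.9 at 8 DAF, and 184.1 in MM18 of 16 DAF, with MM17 listed at 0. AL read 17910 in MM04, 1264 in MM17 and 2141 in MM18, an SD of 9370 around a mean of 7105. The next library below these 2 high values was NE MM18 of 16 DAF. NE read 1495, 2831 and 1519 at 4 DAF, 3203, 2079 and 92.47 at 8 DAF, while at 16 DAF it read 359.8, 1214 and 4539. CC read 1105 and 997.9 at 4 DAF, 589.5 at 8 DAF, and 763.8 and 3511 at 16 DAF. OVT read 411, 139.1 and 241 at 4 DAF, 209.4 and 123.7 at 8 DAF, and 834 at 16 DAF, so the OVT libraries of 4 DAF all lay below the other tissues of that stage.

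Within EN, OSA2 was higher at 4 DAF than at the later stages (7.19 ± 1.59, adjusted p = 0.00912, with 3.81% of all genes passing) and lower at 16 DAF than at the earlier ones (-5.52 ± 1.33, adjusted p = 0.013, with 6.12% passing). The second call ended without the EN library of 4 DAF (-2.57, adjusted p = 0.566) and without EN MM17 of 16 DAF (-3.38, adjusted p = 0.195). EN of 4 DAF against the other tissues missed the threshold (4.3 ± 1.51, adjusted p = 0.155, with 2.42% passing). OVT of 4 DAF was lower in OSA2 than the other tissues (-3.65 ± 1.04, adjusted p = 0.0229), but not without EN MM13 (-2.49, adjusted p = 0.14), OVT MM06 (-3.27, adjusted p = 0.0937) or OVT MM13 (-3.65, adjusted p = 0.0664). At 16 DAF, OSA2 was lower in EN than in the other tissues (-4.78 ± 1.19, adjusted p = 0.00664) and higher in AL than in EN (6.38 ± 1.29, adjusted p = 0.00265). Neither call held without EN MM17 (-2.64, adjusted p = 0.301, and 4.24, adjusted p = 0.101).

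OSA1 and OSA2 had the closest group levels within the family (Pearson r = 0.8, Spearman rho = 0.824 over the 13 group means of log2 of the value plus 10). The groups share the scaling and the same few libraries, so this is a description. They parted in single libraries: NE MM22 of 8 DAF had 5267 for OSA1 and 92.47 for OSA2, OVT MM21 of 8 DAF had 3810 and 209.4, and EN of 4 DAF had 3803 and 15640. OSA3 and OSA7, the members that were higher in OVT, had r = 0.451 and rho = 0.25, and OSA1 and OSA7 had r = -0.348.

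**Figure D3:**
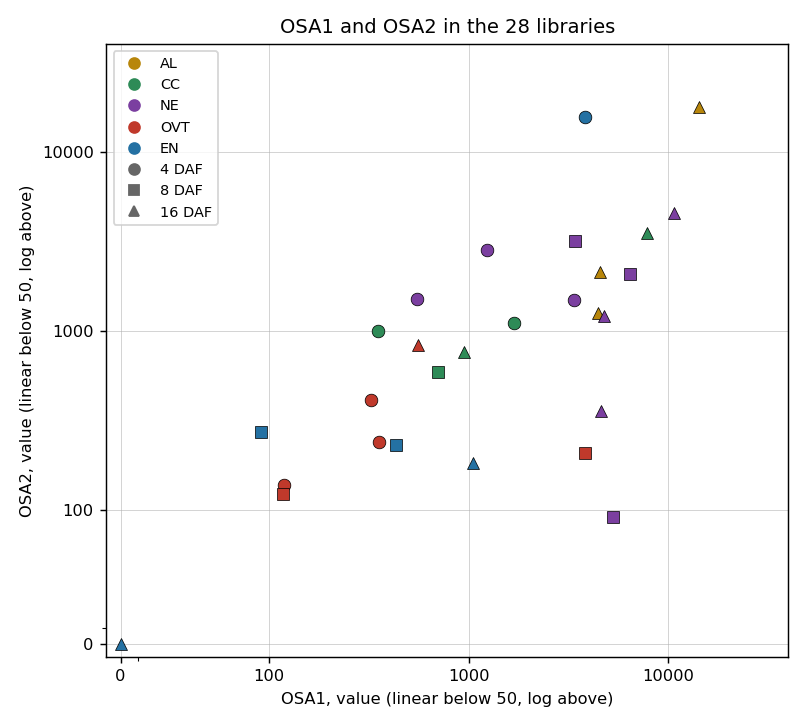
OSA1 (horizontal axis) against OSA2 (vertical axis), both in scaled reads on axes that are linear below 50 and logarithmic above, with 1 point per library, colour for tissue and shape for stage. AL MM04 lies at the upper right (14240 and 17910), EN of 4 DAF lies high on OSA2 (15640), and EN MM17 of 16 DAF lies at the origin.

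OSA3 was a low member that stood out in the ovular vascular trace. OVT read 395.4, 185.7 and 302 at 4 DAF, 90.33 and 71.98 at 8 DAF, and 745.1 at 16 DAF, the last from an estimated 67 reads. AL read 83.55, 53.53 and 132.4, and the EN library of 4 DAF read 167.7. All other libraries were at or under 70.01, the value of CC MM05 of 4 DAF. CC MM13 of 4 DAF read 8.507, CC of 8 DAF was listed at 0, where 3 reads are worth 28.5, and CC of 16 DAF read 6.066 and 12.84. NE read 15.36, 4.758 and 0 at 4 DAF, 0.7823, 1.879 and 0.6466 at 8 DAF, while at 16 DAF it read 0, 57.4 and 16.61. The NE value of 57.4 came from MM17, the library nearly alike to AL MM17. EN read 1.738 and 0 at 8 DAF and was listed at 0 in both libraries of 16 DAF.

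Against the other 3 tissues, OSA3 was higher in OVT at 4 DAF (2.62 ± 0.654, adjusted p = 0.00931), at 8 DAF (3.09 ± 0.748, adjusted p = 0.00947) and at 16 DAF (5.46 ± 0.956, adjusted p = 0.000184, where 18.2% of all genes passed and the median gene lay at -0.6). No OVT library overlapped another tissue of its stage. The call at 16 DAF held under all 36 alternatives that could be made with its 1 library, and that at 8 DAF ended without OVT MM21 (2.95, adjusted p = 0.0888). NE of 4 DAF was lower (-3.02 ± 0.654, adjusted p = 0.0261, with 0.846% of all genes passing), but not without NE MM06 (-2.98, adjusted p = 0.0734) or NE MM13 (-2.7, adjusted p = 0.178), or with CC MM05 taken as 8 DAF (-2.67, adjusted p = 0.105). Within EN, OSA3 was higher at 4 DAF than later (4.09 ± 0.997, adjusted p = 0.0184). The call held under all 37 alternatives that could be run, and leaving out its 1 library of 4 DAF was not among them.

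EN of 16 DAF was lower in OSA3 than the other tissues (-2.85 ± 0.748, adjusted p = 0.00953). Without the OVT library the value was -1.16 (adjusted p = 0.337), and without both that library and NE MM17 it was -0.82 (adjusted p = 0.514). Dropping EN MM17 or EN MM18 also ended the call (adjusted p = 0.071 and 0.0639). AL was higher than EN of 16 DAF in OSA3 (3.24 ± 0.814, adjusted p = 0.0122), and this was lost without EN MM17 (adjusted p = 0.0693), EN MM18 (0.0617) or AL MM18 (2.95, adjusted p = 0.0558). Against the OVT library AL was lower (-3 ± 1.03, adjusted p = 0.0464, with 17.2% of all genes passing and a median gene at 0.68), and 15 of 36 alternatives lost that call, among them leaving out AL MM04 (adjusted p = 0.079), AL MM17 (0.113) or AL MM18 (0.0514), and each of NE MM06 and MM13 of 4 DAF and the NE and EN libraries of 8 DAF (0.0512 to 0.0601), which enter only the shared variance, and taking CC MM05 as 8 DAF (0.0735). The endosperm markers held 0.332 to 4.85% of the signal in AL and 9.63% and 13.4% in EN of 16 DAF, with none of the 6 at 0 in EN, and their part in these differences was not tested.

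OSA8 was a cross-cell signal of a single library. CC of 8 DAF, MM21, read 1740, from an estimated 183 reads. The next highest library was NE MM06 of 4 DAF with 195.1. CC read 49.59 and 10.21 at 4 DAF and was listed at 0 in both libraries of 16 DAF. The other NE libraries of 4 DAF read 58.38 and 50.95, and NE read 7.041, 6.89 and 18.75 at 8 DAF and 0, 14.1 and 28.15 at 16 DAF. The 3 NE libraries of 4 DAF lay above all NE libraries of the later stages. EN read 49.26 at 4 DAF, 14.78 and 0 at 8 DAF, and was listed at 0 at 16 DAF. OVT held at most 4.932, and AL read 0, 7.312 and 3.044. The CC library of 8 DAF was also the shallowest, with 815253 estimated reads, so that 3 reads were worth 28.5 there, and it had the highest share of photosynthesis genes (0.727%).

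OSA8 was higher in CC of 8 DAF than in the other tissues (6.81 ± 0.845, adjusted p = 5.37e-06, with 9.36% of all genes passing) and than in the other CC stages (6.55 ± 0.881, adjusted p = 4.3e-05, with 3.51% passing). With 1 library, the spread is taken from the other groups. Taking CC MM05 as a second library of 8 DAF, as its day label has it, gave 4.37 against the other tissues (adjusted p = 0.0013) and 4.51 against the other stages (adjusted p = 0.029), both by limma. In CC of 16 DAF, OSA8 was lower than at the other stages (-4.62 ± 0.737, adjusted p = 0.000459, with 3.96% passing), and without CC MM21 this was -1.8 (adjusted p = 0.222), or -3.01 with CC MM05 taken as 8 DAF (adjusted p = 0.116). The same library entered the mean against which OVT and EN of 8 DAF were lower (OVT by -2.79 ± 0.661, adjusted p = 0.00817, and EN by -2.25 ± 0.661, adjusted p = 0.0253, with 12.8% of all genes passing in EN). Without it the OVT value was -0.58 (adjusted p = 0.652) and the EN value 0.02 (adjusted p = 1), and with CC MM05 taken as 8 DAF they were -1.98 (adjusted p = 0.159) in OVT and -1.44 (adjusted p = 0.325) in EN.

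The OVT call also ended without OVT MM21 (-2.54, adjusted p = 0.104), and the EN call without EN MM20 (-2.91, adjusted p = 0.0746) or EN MM22 (-1.6, adjusted p = 0.406). At 4 DAF, OSA8 was lower in OVT than in the other tissues (-2.34 ± 0.578, adjusted p = 0.0086), where the OVT libraries read 4.932, 0 and 0, against 10.21 to 195.1 in the others. With CC MM05 taken as 8 DAF this call was lost (-2.08, adjusted p = 0.114). NE was higher in OSA8 at 4 DAF than at its later stages (2.2 ± 0.557, adjusted p = 0.0234). That call ended without NE MM06 of 4 DAF (1.65, adjusted p = 0.199), NE MM20 of 8 DAF (2.14, adjusted p = 0.0513) or NE MM04 of 16 DAF (1.94, adjusted p = 0.0572), and with CC MM05 taken as 8 DAF (2.2, adjusted p = 0.105).

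OSA4, OSA5 and OSA6 were near the limit of detection and were not tested. OSA4 was above 0 only in CC MM18 of 16 DAF, at 8.024, and OSA6 only in the same library, at 3.21, the worth of 1 read. OSA5 read 1.945 in CC MM05 of 4 DAF, 3.668 in EN of 4 DAF and 2.086 in NE MM20 of 8 DAF. The remaining libraries were listed at 0, 27 for OSA4 and OSA6 and 25 for OSA5. At these depths a level below the worth of 3 reads was not detectable.

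Counted over the family, 15 of 60 pairs of a tested member and a tissue comparison passed the threshold, 6 higher and 9 lower, where 8.59% of all genes passed in the same 12 comparisons. Stage comparisons gave 5 higher and 3 lower among 60 pairs, where 6.05% of all genes passed. AL comparisons gave 3 higher and 1 lower among 20 pairs, where 7.81% passed. At an unadjusted p under 0.05 the limma fit had 26, 21 and 8 pairs in these 3 kinds of comparison. The share of all genes under that threshold was not computed for these kinds, and the percentages above are no reference for it. At 4 DAF, 4 of the 5 tested members passed in OVT, with OSA3 and OSA7 higher and OSA2 and OSA8 lower. At 8 DAF, 3 passed in OVT, with OSA3 and OSA7 higher and OSA8 lower. At 16 DAF, EN was lower in 3 members, all of which were at 0 in EN MM17. No member passed in CC at 4 or 16 DAF or in NE at 16 DAF, comparisons in which 2.12%, 8.51% and 8.14% of all genes passed. Nor did any pass at 4 DAF in CC or OVT against the later stages (2.22% and 14.5% of all genes), at 8 DAF in NE, OVT or EN against the other stages (0.0109%, 9.3% and 0.446%), at 16 DAF in NE against the earlier stages (3.89%), or in AL against CC (3.51%).

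Whether the effect of a tissue differed between stages was tested as the difference of 2 such effects, 60 tests in all, of which 4 passed. The OSA8 effect of CC was larger at 8 DAF than at 4 DAF (difference 7.02 ± 1.07, adjusted p = 0.000401, with 1.67% of all genes passing) and smaller at 16 DAF than at 8 DAF (-7.17 ± 1.07, adjusted p = 0.000198, with 4.33% passing). The EN effect was lower at 16 DAF than at 4 DAF for OSA2 (-9.08 ± 1.92, adjusted p = 0.00698, with 3.9% passing) and OSA3 (-4.52 ± 1.21, adjusted p = 0.0335). The OVT effect on OSA7 at 8 DAF minus that at 4 DAF was 1.5 ± 1.12 (adjusted p = 0.632), and at 16 DAF minus that at 8 DAF it was -3.83 ± 1.37 (adjusted p = 0.0644).

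**Figure D4:**
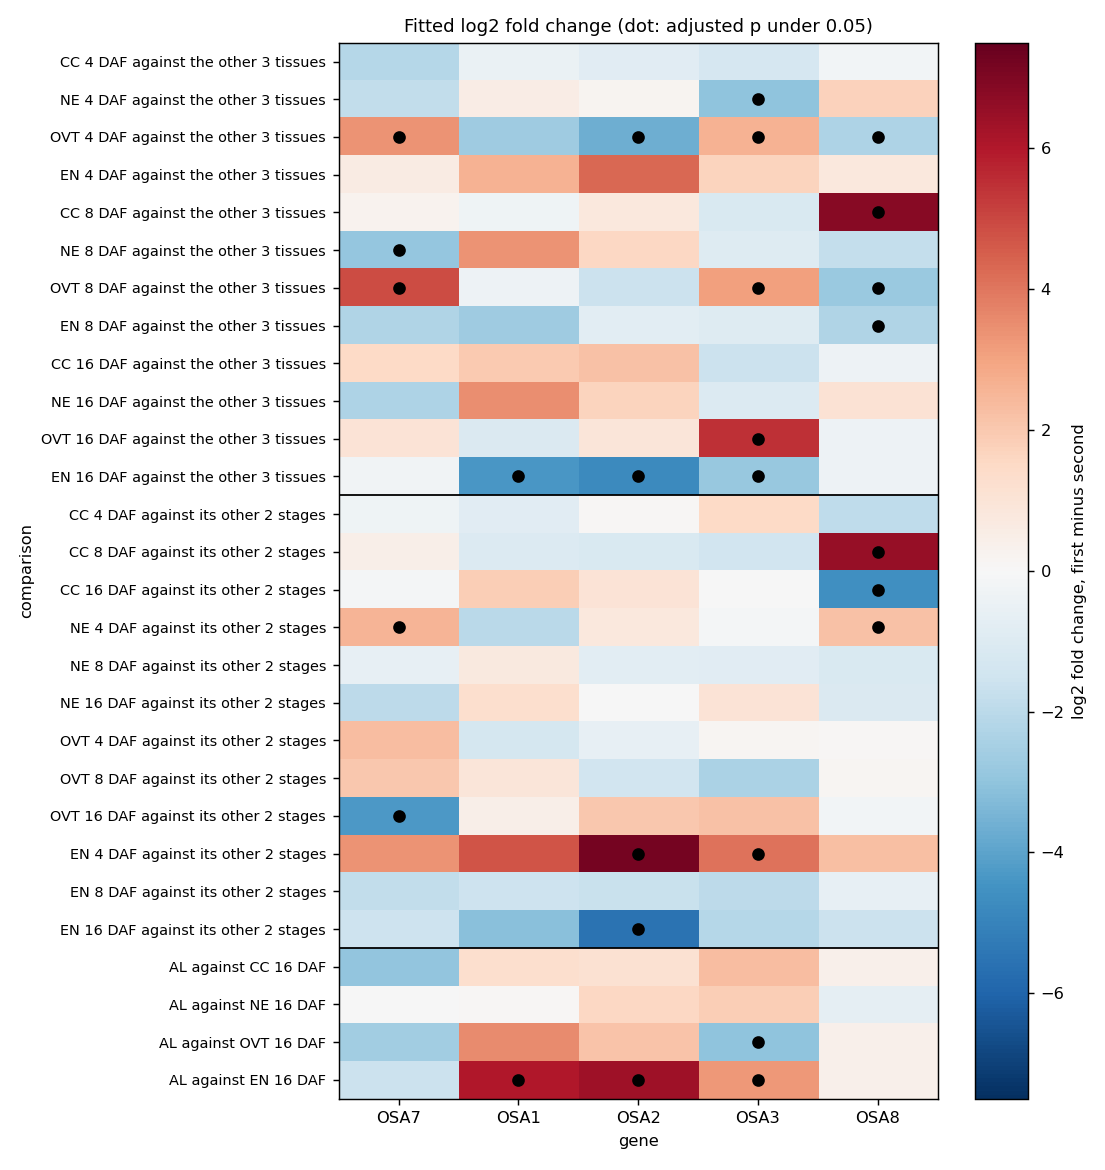
Fitted log2 fold change of each tested H+-ATPase gene (columns) in the 28 comparisons (rows), the first-named group minus the second, in colour from blue (lower) to red (higher), with a dot where the adjusted p was under 0.05. OVT rows of 4 and 8 DAF are red for OSA7 (3.38 and 4.89) and OSA3 (2.62 and 3.09), and the largest single value is OSA2 in EN of 4 DAF against its later stages (7.19).

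AL and NE of 16 DAF could not be separated for any pump gene. OSA1 had a log2 fold change of 0.1 ± 1.27, OSA2 of 1.53 ± 1.16, OSA3 of 1.85 ± 0.728, OSA7 of -0.05 ± 0.822 and OSA8 of -0.68 ± 0.644, AL minus NE, each with an adjusted p of 1. Of 27553 genes, 0 passed in this limma comparison, with 848 (3.08%) at an unadjusted p under 0.05, and limma with voom weights passed 71. AL MM17 and NE MM17, the nearly alike pair, read 4455 and 4776 for OSA1 and 110.7 and 102.2 for OSA7.

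With the 13 groups ordered by their mean, the libraries of most neighbouring groups overlapped. How often this is so over all genes was not computed, and a group of 1 library shows no spread of its own. For OSA1, 1 of 12 neighbouring pairs had libraries that did not overlap, CC of 8 DAF above OVT of 16 DAF, each with 1 library. For OSA7 there were 3: OVT of 4 DAF above EN of 4 DAF (4.4-fold), EN of 4 DAF above CC of 8 DAF (2.99-fold), and OVT of 16 DAF above EN of 16 DAF (1.83-fold). OVT of 8 DAF (27560 ± 23100, n = 2) and OVT of 4 DAF (26550 ± 9520, n = 3) were not separable. For OSA2 there were 4. CC of 4 DAF stood above OVT of 16 DAF, that above CC of 8 DAF, and that above OVT of 4 DAF. EN of 8 DAF stood above OVT of 8 DAF. For OSA3, OVT of 16 DAF stood above OVT of 4 DAF, that above EN of 4 DAF, and that above AL. OVT of 8 DAF also stood above CC of 4 DAF in OSA3. For OSA8, CC of 8 DAF stood 17.1-fold above the mean of NE at 4 DAF (101.5 ± 81.2, n = 3). That mean stood 2.06-fold above the EN library of 4 DAF.

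**Figure D5:**
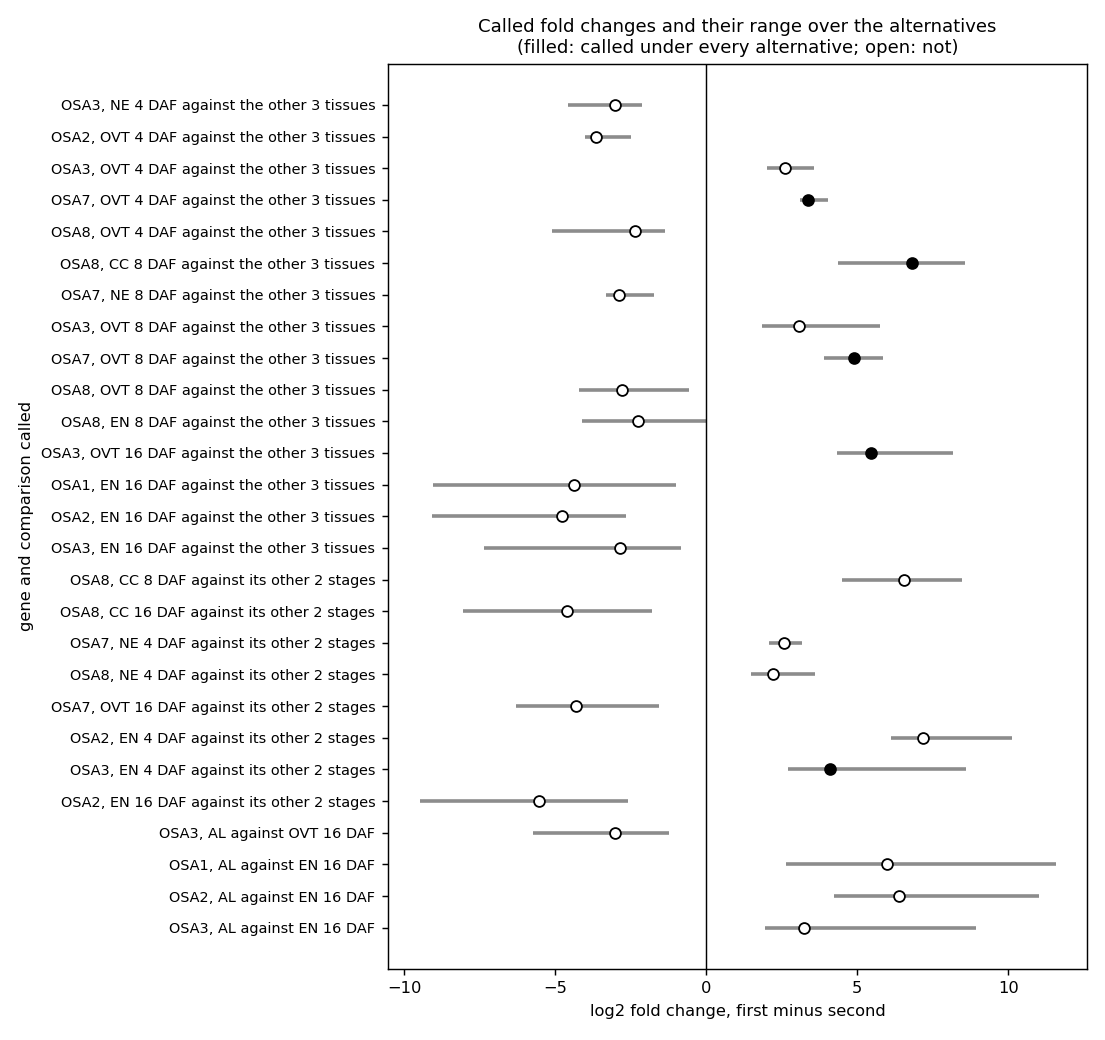
Log2 fold change of every H+-ATPase call (points) with its range over the alternative settings (grey bars), the first-named group minus the second. Filled points, passed under every alternative, are OSA7 in OVT of 4 and 8 DAF, OSA8 in CC of 8 DAF against the other tissues, OSA3 in OVT of 16 DAF and OSA3 in EN of 4 DAF against its later stages, and the bar of OSA8 in EN of 8 DAF ends at 0.02.

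The genes with the most similar group levels were sought among 17704 genes, those with a group mean of at least 100 somewhere, by Pearson r over the 13 group means. For OSA7 they were Os06g0175900 and Os06g0177000 (r = 0.897, rho = 0.89), whose values were equal in all 28 libraries so that they count as 1 measurement, and Os02g0682200 (r = 0.896, rho = 0.768), a gene with transcription factor terms. For OSA1 the first was Os03g0689350 (r = 0.96, rho = 0.973), followed by Os04g0630800 (r = 0.888) and Os08g0530400 (r = 0.871). For OSA2 they were Os12g0126300 (r = 0.9), Os07g0191250 (r = 0.898) and Os03g0621400 (r = 0.892). Os03g0689350 and Os07g0191250 have the identifiers next to OSA1 and OSA2. In 27 libraries their values were up to 98.9% of that of OSA1 and 98.7% of that of OSA2, with medians of 86.5% and 58.1%, and both were at 0 where the pump gene was. If such neighbours overlap the pump genes, their reads and those of the pump cannot be told apart, and the levels of OSA1 and OSA2 are uncertain to that extent.

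Of the 3 further genes with the same annotation, Os03g0183900 resembled OSA8 in being highest in CC of 8 DAF. It was higher there than in the other tissues (limma, 5.29, adjusted p = 0.00339, with 9.36% of all genes passing). That group is 1 library, the shallowest, in which Os03g0183900 read 570.5. The gene was also higher in NE at 4 DAF than later (limma, 3.11, adjusted p = 0.0183, with 4.3% passing), and it was at 0 in 8 libraries. Os11g0485200 was highest in the 1 OVT library of 16 DAF, marked as excluded. It read 1790 in that library, above the 1201 of OSA7, neither divided by gene length. There it was above the other tissues (5.85, adjusted p = 0.00735), where 18.2% of all genes passed. It was lower in EN at 8 DAF (-3.61, adjusted p = 0.0465) and 16 DAF (-4.14, adjusted p = 0.0177), where 12.8% and 16.1% passed. Os06g0181500 was at 0 in 20 libraries and passed in no comparison.

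The 14-3-3 genes, whose proteins bind and release these pumps, held calls in both directions in OVT. All 8 listed were tested. In OVT 1 was higher and 1 lower at 4 DAF, where 11.7% of all genes passed, and 2 were higher and 1 lower at 8 DAF, where 9.82% passed. Os11g0546900 was higher in OVT at 4 DAF (2.43, adjusted p = 0.000386) and 8 DAF (2.94, adjusted p = 0.000286), like OSA7, and lower in EN at 8 DAF (-5.05, adjusted p = 9.97e-07) and 16 DAF (-3.24, adjusted p = 6.09e-05). Os04g0462500 was lower in OVT at 4 DAF (-2.06) and 8 DAF (-2.84). In OVT of 16 DAF, where 18.2% of all genes passed, 2 genes were higher and 2 lower, among them Os08g0480800 with 5.68 (adjusted p = 1.27e-06) and Os08g0430500 with -3.97 (adjusted p = 0.000288). The median of the 8 was -0.21 in OVT of 4 DAF and 0.25 in OVT of 8 DAF, beside -0.2 and -0.13 over all genes.

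Sucrose/H+ symporters, which use the proton gradient, were measurable for 4 of 5 genes, OsSUT3 (Os10g0404500) being at 0 in all 28 libraries. Among all 28 comparisons the calls were those of OsSUT2 (Os12g0641400). It was higher in OVT of 16 DAF than in the other tissues (4.47, adjusted p = 0.0237), where 18.2% of all genes passed. It was lower in OVT of 4 DAF than at its later stages (-3.22, adjusted p = 0.0467), where 14.5% passed. Both comparisons include the 1 OVT library of 16 DAF, marked as excluded.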

How the data were processed

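Per the labels and methods, tissues were cut from 3 grains per preparation by laser capture, and the cDNA was amplified by PCR and sequenced as single-end reads. Alignment by the authors used STAR and the genome build IRGSP-1.0, and reads were then summed by gene in R. Versions, strand use and the treatment of reads matching several genes are not given in the sources used here. The deposited values are named signal and are reads scaled by the authors with 1 factor per library. They are not counts, so the count test of the study (edgeR) was not used, and the factor was read from the step between low values. Between 86.4 and 95.7% of values under 100 reads fell within 0.03 of a whole read. The deposited table also gives gene length in bases. The authors left out libraries that correlated poorly, before deposit. Of the columns of values per sample, 1 was not used.

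Genes above 10 with at least 10 estimated reads in 1 library were tested (27553; 5 of the 8 H+-ATPase genes). limma 3.58.1 (R 4.3.3, statmod 1.5.0) was fitted to log2 of the value plus 10 with 13 group means, trend and robust prior (15 residual degrees of freedom), two-sided, with Benjamini-Hochberg adjustment per comparison at 0.05. There were 28 comparisons: 12 of a tissue minus the average of the other 3 at the same stage, AL not included, 12 of a stage minus the mean of the other 2, and 4 of AL minus each tissue of 16 DAF. A group of 1 library is assumed to vary like the others. Fold changes understate low genes. The code was tested on simulated data. Other software was data.table (version 1.17.8), Python 3.11.15, numpy 2.4.6, pandas 2.3.3 and matplotlib 3.10.9.

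The genes and lists were chosen with earlier results of these data known. Named are all 8 H+-ATPase genes, at most 3 called genes per list and comparison, and the 3 most similar genes for each of the 3 highest H+-ATPase genes. Nothing in the labels says that replicates came from separate plants, so p-values measure the spread between these libraries only. A planned description of protein sequences was not made, since no sequence was at hand. Intervals of counting error are not given, because amplified reads without molecular identifiers are not independent molecules. Alternatives were the pseudocounts 1 and 30, no filter, upper-quartile and median-of-ratios scaling, voom weights on estimated reads, the title prefix as covariate, the MM number as a block, CC MM05 as 8 DAF, OVT of 16 DAF left out, and each library left out in turn.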

Additional observations from a re-analysis of the deposited data

Results flagged for a closer look

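Of 60 tests of whether a tissue's effect on a pump gene differed between stages, 4 passed the threshold, and all 4 involve a group of 1 library. The effect of CC on OSA8 was 7.02 larger on the log2 scale at 8 DAF than at 4 DAF (adjusted p = 0.000401) and differed by -7.17 between 16 and 8 DAF (adjusted p = 0.000198). The first was not past the threshold with a pseudocount of 1 (8.29, adjusted p = 0.0893), with voom weights (7.73, adjusted p = 0.732) or with CC MM05 taken as 8 DAF (5.36, adjusted p = 0.149), and the second not with voom weights (-8.86, adjusted p = 0.126). The effect of EN differed between 16 and 4 DAF by -9.08 for OSA2 (adjusted p = 0.00698) and by -4.52 for OSA3 (adjusted p = 0.0335). The OSA2 difference missed the threshold with voom weights (-12.72, adjusted p = 0.383), and the OSA3 difference missed it under 8 of 38 alternatives, among them leaving out the OVT library of 16 DAF (-2.83, adjusted p = 0.253), CC MM13 of 4 DAF (adjusted p = 0.0502), or EN MM17 (adjusted p = 0.0586) or EN MM18 (adjusted p = 0.0848) of 16 DAF.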

How the results depend on the processing

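Of the calls, 5 held under every alternative that could be run. They were those of OSA7 in OVT of 4 and 8 DAF, OSA8 in CC of 8 DAF against the other tissues, OSA3 in OVT of 16 DAF and OSA3 in EN of 4 DAF against later stages. The OSA8 and OSA3 calls among them each rest on a group of 1 library, and leaving that library out could not be run. Of 27 calls, 18 were lost with voom weights, 8 with CC MM05 as 8 DAF and 7 with a pseudocount of 1. The only direction to turn was that of OSA8 in EN of 8 DAF, 0.02 without CC MM21, with values down to -2.91 without other single libraries. Members lower in a tissue, 9 as reported, numbered 2 with voom weights and 4 with CC MM05 as 8 DAF. Members higher at a stage, 5 as reported, numbered 3 with voom weights and 3 with the title prefix as covariate, and members lower at a stage, 3 as reported, numbered 5 with a pseudocount of 30. Members higher in AL, 3 as reported, numbered 1 with voom weights. The 1 member lower in AL became 2 with upper-quartile scaling and 0 with a pseudocount of 1, median-of-ratios scaling, voom weights, CC MM05 as 8 DAF, or OVT of 16 DAF left out, alone or, as chosen after seeing the data, together with NE MM17. Leaving out 1 library at a time gave 5 to 8 members higher and 7 to 11 lower in a tissue, 3 to 7 higher and 2 to 4 lower at a stage, and 0 to 3 higher and 0 to 2 lower in AL. Without division by length the share of OSA2 in EN of 4 DAF was 60.9%, that of OSA7 in CC of 8 DAF 39.9% and that of OSA7 in OVT of 16 DAF 36.0%. The leading member changed in NE of 4 DAF, where OSA2 averaged 35.23% and OSA7 33.57%. It also changed in EN MM18 of 16 DAF, where OSA1 led with 49.2%. Upper-quartile scaling moved the median of all genes by -0.33 to 0.31, and by over 0.1 in 13 of 28 comparisons.

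The labels do not say what an MM number marks. Deviations of libraries with the same number had r from -0.195 to 0.461 (25 pairs, median 0.022), over 0.1 in 6 pairs, among them all 4 of CC with NE, against 4 of 49 pairs with different numbers. In a group of 2 libraries the deviations mirror each other, as for CC MM05 and CC MM13 with NE MM05 of 4 DAF (0.147 and -0.147). The pairs are thus not independent, and these values cannot decide whether the numbers pair the libraries. The main fit left such a pairing out. With the MM number as a replicate block, 6 members were higher and 6 lower in a tissue, and 3 higher and 0 lower in AL, and 4 of 19 calls were lost, those of OSA7 in NE of 8 DAF (adjusted p = 0.0683), OSA3 in NE of 4 DAF (0.0679), OSA8 in EN of 8 DAF (0.106) and OSA3 in AL against OVT (0.107). Stage comparisons could not be fitted so, since each number lies in 1 stage.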

Other observations

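The vacuolar proton pumps, which acidify the vacuole instead of the cell wall, were called in part, in OVT, EN, CC and NE. Of 26 genes annotated as V-type ATPase subunits, 25 were tested. In OVT, 3 were higher than in the other tissues at 4 DAF, where 6.07% of all genes passed as higher and 11.7% in either direction. At 8 DAF 5 were higher, where 5.75% of all genes passed as higher and 9.82% in either direction. The list medians were 0.58 and 0.83, beside -0.2 and -0.13 over all genes. The largest in OVT at 8 DAF was Os11g0169900 (limma, 2.81, adjusted p = 0.00106). In the 1 CC library of 8 DAF 3 were higher (median 0.68, beside -0.21), where 9.36% of all genes passed in either direction. At 16 DAF, CC had 3 higher and 1 lower (0.83, beside 0.19), where 8.51% passed. NE had 2 lower at 8 DAF (3.06% passed) and 2 higher and 1 lower at 16 DAF (8.14% passed). The OVT library of 16 DAF had 4 higher and 6 lower than the other tissues, where 18.2% passed. In EN of 8 DAF, where 7.43% of all genes passed as lower and 12.8% in either direction, 6 were lower (median -0.73, beside -0.08). Os10g0184300 was the furthest (-3.26, adjusted p = 0.000966). In the OVT library of 16 DAF, the 1 marked as excluded, 3 were higher and 10 lower than at its earlier stages, where 20.5% of all genes passed (median -1.61, beside -0.58), from Os02g0160250 at 6.64 to Os10g0184300 at -7.02 (adjusted p = 6.16e-07).

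The proton-pumping pyrophosphatases, which energise the same membrane with pyrophosphate, were lower in late endosperm. Of 7 genes, 6 were tested. Against the other tissues 4 were lower in EN of 8 DAF, where 7.43% of all genes passed as lower and 12.8% in either direction. In EN of 16 DAF 3 were lower, where 8.42% passed as lower and 16.1% in either direction. The medians were -3.03 and -2.62, beside -0.08 and -0.2 over all genes. Os06g0644200 was lower at both stages (-4.76, adjusted p = 0.00176, and -6.41, adjusted p = 3.95e-05). At 16 DAF 3 were higher in AL than in EN, where 6.61% of all genes passed as higher and 10.5% in either direction. They were Os02g0802500 (7.04), Os06g0644200 (5.68) and Os02g0184200 (3.76). In EN MM17 and MM18 of 16 DAF, 439 and 292 genes above 0 in all other libraries were listed at 0, and the part of this in these differences was not tested.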
